A study of Mus musculus with 12 samples.

Results

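The genes described here mark the difference between epithelial and mesenchymal cells: Epcam, Cdh1, Krt8 and Krt18 on the epithelial side, Cdh2 on the mesenchymal side, and the transcription factor genes Zeb1, Zeb2, Snai1, Snai2 and Twist1. They were chosen by gene symbol in the probe annotation, and all 10 were present, on 17 of the 38784 probes of the array. Cdh2 had 4 probes, Zeb2 had 3, Krt8 and Zeb1 had 2 each, and the other genes had 1 each.

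RNA came from mouse 3T3 cells, an established fibroblast line, in 4 groups of 3 arrays: control cells and cells given Shld1 at 10 nM, 100 nM and 1 µM. Shld1 is a synthetic ligand of a destabilizing domain derived from FKBP12, which it protects from degradation; the sources used here do not say whether these cells carried a protein with that domain, what the controls received, or how long treatment lasted. On each of the 12 arrays the cells' RNA, labelled with Cy5, was hybridised beside a commercial mouse reference RNA, labelled with Cy3. Values are log2 ratios of cells over reference, centred on each array's median, so 0 is the array's typical ratio. Log base 2 is assumed, and the direction rests on the dye labels and on the signs of fibroblast and leukocyte genes; were it the other way, every sign below would turn. No dye swap was made, so for a single probe a dye effect and a difference from the reference cannot be told apart.

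Epithelial cells are joined to each other by E-cadherin (Cdh1) and the adhesion molecule EpCAM (Epcam), and their cytoskeleton contains the paired keratins 8 and 18, which assemble with each other into filaments. Mesenchymal cells such as fibroblasts carry N-cadherin (Cdh2) instead. Zeb1, Zeb2, Snail (Snai1), Slug (Snai2) and Twist1 are DNA-binding repressors or regulators that turn cells from the first state towards the second, and the Zeb and Snail proteins do so by binding E-box sequences in promoters such as that of Cdh1.

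The 250 bases before the annotated start of 3 epithelial genes are shown because they hold the E-box letters CAGGTG, or CACCTG on the other strand, which Zeb and Snail proteins recognise. The sequences are from RefSeq, build GRCm38.p6, written 5′ to 3′ along the gene's strand, with the motif in capitals. They lie at chr15:102004343-102004592 on the minus strand for Krt8, at chr15:102027966-102028215 on the plus strand for Krt18, and at chr17:87635729-87635978 on the plus strand for Epcam.
Krt8: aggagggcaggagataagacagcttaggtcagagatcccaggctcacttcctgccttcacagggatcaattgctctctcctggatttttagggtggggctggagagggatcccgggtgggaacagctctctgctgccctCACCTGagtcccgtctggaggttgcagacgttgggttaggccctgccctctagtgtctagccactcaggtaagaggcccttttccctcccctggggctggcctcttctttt
Krt18: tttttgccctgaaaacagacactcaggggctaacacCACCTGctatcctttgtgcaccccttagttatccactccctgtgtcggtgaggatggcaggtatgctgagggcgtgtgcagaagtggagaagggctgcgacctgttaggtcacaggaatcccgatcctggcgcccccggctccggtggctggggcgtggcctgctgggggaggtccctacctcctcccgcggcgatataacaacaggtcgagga
Epcam: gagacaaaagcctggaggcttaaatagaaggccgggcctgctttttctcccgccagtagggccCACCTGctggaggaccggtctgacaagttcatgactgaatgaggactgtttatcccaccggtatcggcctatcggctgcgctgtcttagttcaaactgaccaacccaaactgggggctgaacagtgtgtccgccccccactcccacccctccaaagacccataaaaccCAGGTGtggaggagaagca
The motif began 111 bases before the start of Krt8, 214 bases before that of Krt18, and 187 and 19 bases before that of Epcam. Promoters of 6 of the 10 genes were found in the RefSeq table, and that of Cdh1 was not among them. Of these 6 genes, 4, those 3 and Snai1, held the motif in this window. Of 32851 mouse promoter windows of the same length, 17.2% held it. That share is per window and the count of 4 of 6 is per gene, so they are not like for like. Zeb2 had several windows, and none held the motif. Krt8 and Krt18 are neighbours on chromosome 15, with 0 protein-coding genes between them. A match of letters is a description and not a binding site, and no binding was measured.

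The arrays differed in technical respects that touch these genes. Each array gave a value for 30649 to 33615 probes, and pairs of arrays correlated at 0.690 to 0.875. The ratio scale of an array, its slope on the mean of all 12 arrays over 25745 probes, was between 0.845 (1 µM replicate 3) and 1.15 (100 nM replicate 1), so the width of the log ratios differed between arrays. Precision is limited by how many arrays there were, and since the labels do not say that replicates were separate cultures, p-values measure only the spread between these samples. In bulk RNA, fewer cells of a type and less RNA per cell cannot be told apart.

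Among the epithelial genes, the keratins lay below the reference while Epcam lay above it and Cdh1 lay near it. Krt18 was at -2.14, -1.49 and -0.87 in controls, at -1.37, -1.09 and -0.97 at 10 nM, at -1.99, -1.39 and -2.01 at 100 nM, and at -1.98, -1.06 and -0.49 at 1 µM. All 12 arrays were below the reference, with a mean of -1.40 ± 0.53 (SD, n = 12 arrays), and the 4 groups overlapped. Of the 25745 probes measured on every array, 19.3% were below the reference on all 12 and 23.4% above it on all 12, so the side of the reference alone does not set a gene apart.

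Krt8 gave different pictures on its 2 probes. On probe 31298 it was at -3.79, -2.69 and -1.50 in controls, at -2.40, -2.48 and -1.58 at 10 nM, at -2.62, -2.07 and -2.47 at 100 nM, and at -1.81, -1.87 and -0.94 at 1 µM. That probe was below the reference on all 12 arrays, and its range of 2.85 was the widest of the 17 probes. On probe 7148 Krt8 averaged -0.30 ± 0.26 (SD, n = 12 arrays) against -2.19 ± 0.73 on probe 31298, and its values ran between -0.72 and 0.23. Across arrays the probes ran in opposite directions without passing the test (Pearson r = -0.632, p = 0.0277, adjusted p = 0.0763; Spearman rho = -0.552, p = 0.0667, adjusted p = 0.157; permutation tests over 12 arrays, adjusted over 11 pairs of probes of one gene). Without the 2 arrays farthest from the median of probe 7148 the r was -0.223, though leaving out extreme arrays also narrows the range. Levels and changes of Krt8 are therefore given by probe, and whether both probes read the same transcript was not tested.

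Epcam, usually absent from fibroblasts, was at 0.07, 0.20 and 0.73 in controls, at 0.57, 0.74 and 0.64 at 10 nM, at 0.54, 1.05 and -0.01 at 100 nM, and at 0.94, 0.98 and 0.74 at 1 µM. It was above the reference on 11 of 12 arrays, with a mean of 0.60 ± 0.35 (SD, n = 12 arrays). Cdh1 was at -0.21, 0.48 and 0.74 in controls, at -0.05 and 0.005 on the 2 arrays with a value at 10 nM, at 0.07, -0.54 and 0.17 at 100 nM, and at 0.34, 0.32 and -0.51 at 1 µM. It lay on both sides of the reference in each of the 4 groups, and averaged 0.07 ± 0.39 (n = 11 arrays). A ratio near or above the reference does not show that a gene is expressed, because signal over background is unknown and a dim probe also gives a ratio near 0.

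**Figure D1:**
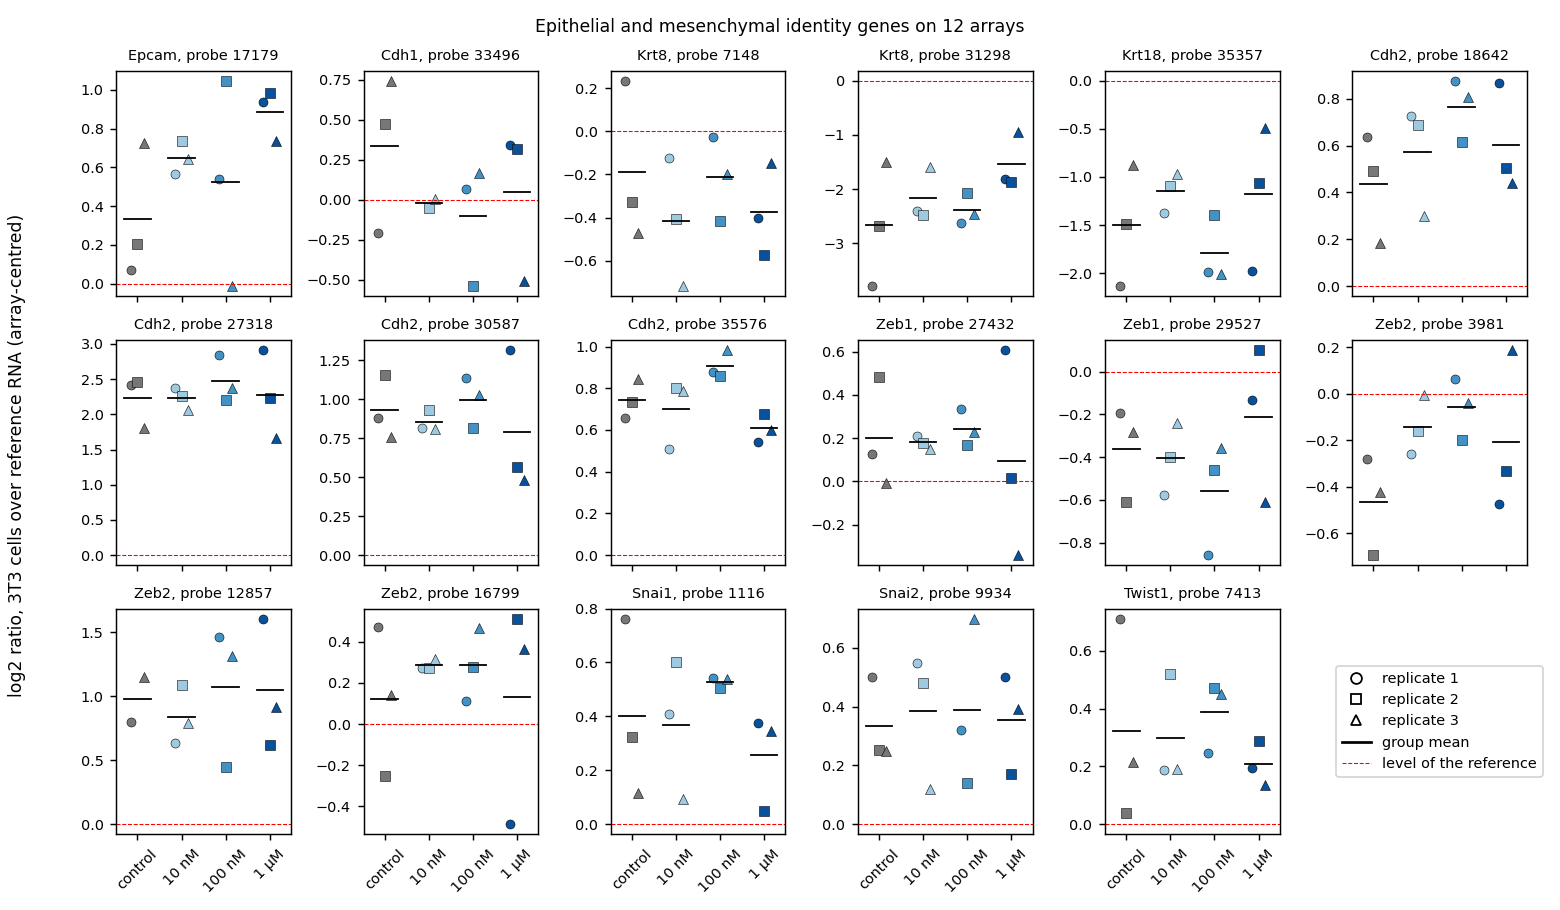
Log2 ratio of 3T3 cells over reference RNA (vertical axis, array-centred) for each of the 17 probes, by dose group (horizontal axis), with 1 point per array, a bar at the group mean and the reference as a dashed line; vertical scales differ between panels. Krt18, Krt8 on probe 31298 and the 4 Cdh2 probes lie on 1 side of the reference on all 12 arrays, and the dose groups overlap with control for most probes.

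N-cadherin stood on the other side of the reference from the keratins. All 4 Cdh2 probes were above the reference on all 12 arrays, with means of 2.30 ± 0.36 on probe 27318, 0.89 ± 0.24 on probe 30587, 0.74 ± 0.14 on probe 35576 and 0.59 ± 0.22 on probe 18642 (SD, n = 12 arrays each). On probe 27318 Cdh2 was at 2.41, 2.46 and 1.81 in controls, at 2.38, 2.27 and 2.06 at 10 nM, at 2.85, 2.20 and 2.38 at 100 nM, and at 2.92, 2.23 and 1.67 at 1 µM. Its lowest value was on 1 µM replicate 3, and the groups overlapped. It was the 1 probe of 17 more than 2-fold above the reference on every array, where 2.21% of probes measured on all arrays were, and 0 of 17 were more than 2-fold below it throughout, where 1.38% were. Probes 27318 and 30587 varied together over the arrays (Pearson r = 0.844, adjusted p = 0.00787; Spearman rho = 0.895, adjusted p = 0.00253; 0.662 without the 2 farthest arrays; permutation tests over 12 arrays, 11 pairs of probes), and so did 18642 and 27318 (r = 0.813, adjusted p = 0.00787; rho = 0.776, adjusted p = 0.0243; 0.781 without those arrays). Their raw p were 0.000860 and 0.00143 for r and 0.000230 and 0.00441 for rho, and after removing the mean of each replicate number the r were 0.862 and 0.625. Probe 35576 correlated with the other 3 at -0.07 to 0.14 (adjusted p = 0.974 each, permutation tests), and at 0.419 to 0.540 with replicate means removed. Its spread within groups, 0.106, was smaller than that of all but 1.17% of tested probes. With the ratio scale of the arrays, the r was 0.93 for probe 27318, 0.83 for 18642, 0.73 for 30587 and 0.0086 for 35576. The part of the ratio scale in the shared variation of the Cdh2 probes was not tested.

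Snai1, Snai2 and Twist1 lay somewhat above the reference. Snai1, the gene of the Snail repressor, was at 0.76, 0.32 and 0.12 in controls, at 0.41, 0.60 and 0.09 at 10 nM, at 0.54, 0.50 and 0.54 at 100 nM, and at 0.38, 0.05 and 0.34 at 1 µM. It was above the reference on all 12 arrays, as were Snai2, which averaged 0.36 ± 0.18, and Twist1, which averaged 0.30 ± 0.19 (SD, n = 12 arrays each). The values of Snai2 ran between 0.12 and 0.70 and those of Twist1 between 0.04 and 0.71, and no dose group of either stood apart from control. Without centring the means were smaller, at 0.21 for Snai2 and 0.15 for Twist1, and fewer arrays were above the reference, 10 for Snai1, 9 for Snai2 and 10 for Twist1. The count of arrays above the reference thus depends on where an array is centred.

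The probes of Zeb1 and Zeb2 did not lie on the same side of the reference. Zeb1 averaged 0.18 ± 0.24 on probe 27432 and -0.38 ± 0.26 on probe 29527 (SD, n = 12 arrays each), and Zeb2 averaged 0.98 ± 0.37 on probe 12857 (n = 11), 0.21 ± 0.30 on probe 16799 and -0.22 ± 0.25 on probe 3981. Across arrays the 2 Zeb1 probes had an r of -0.05 and a rho of -0.25 (p = 0.885 and 0.429, adjusted p = 0.974 and 0.673, permutation tests over 12 arrays), and the r was -0.76 without the 2 farthest arrays. For Zeb2 the r between probes ran from -0.635 to 0.574 with adjusted p from 0.0763 to 0.977, and the rho from -0.573 to 0.336 with adjusted p from 0.157 to 0.989 (permutation tests). Without the 2 farthest arrays those r ran from -0.09 to 0.45. Mean ratios of these genes over their probes thus depend on which probe is taken.

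None of the 17 probes passed at any dose, so no epithelial or mesenchymal gene of the set was shown to change with Shld1. The series asked what the ligand does to 3T3 cells, and each dose was set against the same 3 control arrays with limma over 30357 probes and a Benjamini-Hochberg adjusted p under 0.05. At 1 µM 0 of 17 probes passed, where 0.00329% of all probes did. At 100 nM and at 10 nM 0 passed, where 0% of all probes did, and for the mean of the 3 doses 0 passed against 0% of all probes. An F test over the 3 doses called 0 of the 17, with 0.00329% of all probes called. At an unadjusted p under 0.05, 1 of 17 was reached at 1 µM (4.23% of all probes), 0 at 100 nM (3.23%), 0 at 10 nM (2.67%), 0 for the mean of the doses (3.16%) and 0 in the F test (3.31%). The median log2 change over the 17 probes was -0.02 at 10 nM, 0.10 at 100 nM and 0.02 at 1 µM, beside medians of 0.00, 0.02 and -0.01 over all tested probes.

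The probe reached without adjustment was Krt8 on probe 31298, at -1.54 ± 0.52 at 1 µM and -2.66 ± 1.15 in controls (SD, n = 3 each), a log2 change of 1.12 (SE 0.48, 95% interval 0.07 to 2.17, unadjusted p = 0.0380, adjusted p = 0.999, limma). The groups overlapped, since control replicate 3 was at -1.50. Without control replicate 1, which had the lowest value of this probe on any array, the change was 0.55, and without control replicate 3 it was 1.70. The changes at 10 nM and 100 nM were 0.51 (95% interval -0.54 to 1.55) and 0.28 (-0.77 to 1.32). Krt8 on probe 7148 was at -0.37 ± 0.21 at 1 µM and -0.19 ± 0.37 in controls, a change of -0.18 (-0.68 to 0.31) in the opposite direction, with -0.23 at 10 nM and -0.02 at 100 nM.

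The partner keratin Krt18 was at -1.18 ± 0.75 at 1 µM and -1.50 ± 0.63 in controls (SD, n = 3 each), a log2 change of 0.32 (95% interval -0.51 to 1.14). That value was -0.00067 without control replicate 1 and -0.02 without 1 µM replicate 3. The changes of Krt18 were 0.35 (95% interval -0.47 to 1.18) at 10 nM and -0.30 (-1.12 to 0.53) at 100 nM.

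For Epcam, the 3 arrays at 1 µM, at 0.74 to 0.98, lay above the 3 control arrays, at 0.07 to 0.73, and the nearest arrays were at 0.739 and 0.728. The log2 change was 0.55 (SE 0.26, 95% interval -0.0035 to 1.11, unadjusted p = 0.0512, adjusted p = 0.999, limma). This was the only probe of the 17 whose arrays did not overlap with control at 1 µM, 5.88% of them, where 3.94% of all probes lay wholly above control and 4.85% wholly below, with 0 of the 17 below. In the fit with 1 value per gene, the interval of Epcam at 1 µM was 0.0089 to 1.10 (unadjusted p = 0.0469, adjusted p = 0.999, limma). In that fit Krt8, as the mean of its probes, had an unadjusted p of 0.0577 (limma). Which of them was under 0.05 without adjustment thus depended on the fit. The change of Epcam was 0.32 (-0.24 to 0.87) at 10 nM and 0.19 (-0.37 to 0.75) at 100 nM, where replicate 3 was at -0.01. The estimates for Cdh1 had the other sign, at -0.36 (95% interval -1.12 to 0.40) at 10 nM, -0.44 (-1.11 to 0.24) at 100 nM and -0.28 (-0.96 to 0.39) at 1 µM, none of which passed. Leaving out 1 array at a time, they ran from -0.63 to -0.16 at 10 nM, from -0.71 to -0.22 at 100 nM and from -0.56 to -0.0072 at 1 µM.

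On the mesenchymal side, the changes of Cdh2 at 1 µM were 0.17, 0.05, -0.14 and -0.14 on probes 18642, 27318, 30587 and 35576, and the 95% intervals of all 4 lay within -0.63 and 0.70. Snai1 was at 0.26 ± 0.18 at 1 µM and 0.40 ± 0.33 in controls (SD, n = 3 each), a change of -0.14 (95% interval -0.58 to 0.30). The estimates at that dose were 0.02 (-0.41 to 0.44) for Snai2 and -0.12 (-0.54 to 0.31) for Twist1, and neither passed. The estimates for Zeb1 were -0.10 (-0.60 to 0.39) on probe 27432 and 0.15 (-0.33 to 0.63) on probe 29527, and those for Zeb2 were 0.07 (-0.70 to 0.84) on probe 12857 and 0.01 (-0.56 to 0.58) on probe 16799.

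Zeb2 on probe 3981 was at -0.28, -0.69 and -0.42 in controls, at -0.26, -0.16 and -0.01 at 10 nM, at 0.06, -0.20 and -0.04 at 100 nM, and at -0.47, -0.33 and 0.19 at 1 µM. All arrays at 10 nM and 100 nM lay above the control arrays, and those at 1 µM overlapped with them. The log2 changes were 0.32 (SE 0.20, 95% interval -0.11 to 0.76) at 10 nM, 0.41 (SE 0.20, -0.03 to 0.84) at 100 nM and 0.26 (SE 0.20, -0.18 to 0.69) at 1 µM, and none passed. It was 1 of 17 probes wholly above control at 10 nM, where 3.92% of all probes were, and 1 of 2 at 100 nM with Cdh2 on probe 35576, where 4.86% were. No probe of the 17 lay wholly below control at 10 nM or 100 nM, where 3.83% and 4.56% of all probes did.

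The intervals bound what these arrays could have missed. At each dose 14 of the 17 probes had a 95% interval within a doubling either way, beside 80.0% of all probes at 10 nM, 80.4% at 100 nM and 77.9% at 1 µM. The 3 others were epithelial genes at every dose: Cdh1, Krt8 on probe 31298 and Krt18 at 10 nM and at 100 nM, and Epcam, Krt8 on probe 31298 and Krt18 at 1 µM. For the mesenchymal side and the 5 transcription factor genes, a measured ratio change beyond 2-fold was outside the interval at all 3 doses.

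**Figure D2:**
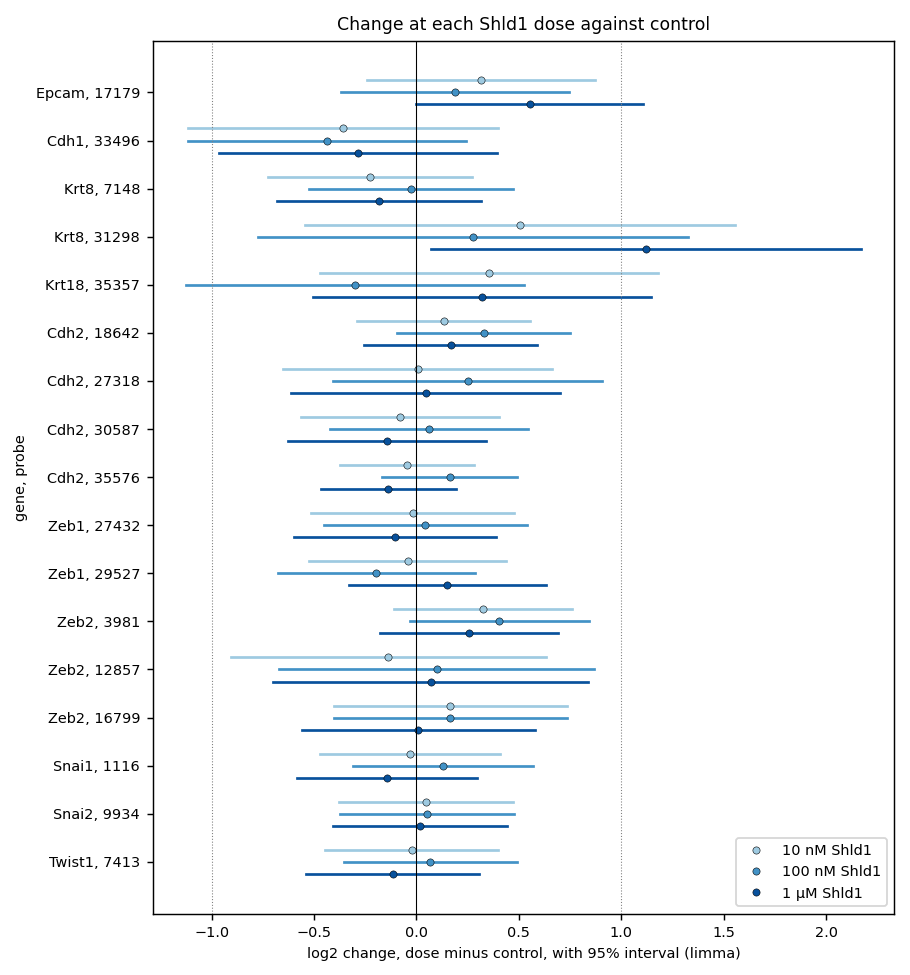
Log2 change of each of the 17 probes (vertical axis) at 10 nM, 100 nM and 1 µM against control (horizontal axis), as points with 95% intervals from limma; dotted lines mark a doubling and a halving. Krt8 on probe 31298 at 1 µM, at 1.12, has the only interval that excludes 0, and the widest intervals belong to that probe, Krt18 and Zeb2 on probe 12857.

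Krt18 and 1 of the Krt8 probes varied over the arrays more than most probes did. The spread within groups was 0.692 for Krt8 on probe 31298 and 0.531 for Krt18, larger than for 94.6% and 87.8% of the tested probes, whose median was 0.294. Krt8 on probe 7148 had 0.279, larger than for 44.9%. Of the 17 probes 7 were above that median. Krt18 and Krt8 on probe 31298 were highest on 1 µM replicate 3 and lowest on control replicate 1, and Cdh2 on probe 27318 was lowest on 1 µM replicate 3. The ratio scale was also lowest there, at 0.845, against 1.09 on control replicate 1. Leukocyte and macrophage markers, 9 of 10 measured, averaged between -1.17 and -0.77 at 1 µM and between -2.09 and -0.84 in controls, with the lowest on control replicate 1 and the highest on 1 µM replicate 3. All 9 were above control in estimate at 1 µM, with a median log2 change of 0.29 beside -0.02 over all genes, and 0 passed (limma; 1 at an unadjusted p under 0.05). On leaving out 1 array that median ran from 0.019 (control replicate 1 omitted) to 0.63 (control replicate 3 omitted). At 10 nM 6 of 9 were above control, with a median of 0.21, and at 100 nM 3 of 9, with a median of -0.03. Over all genes 48.4% were above control at 10 nM, 53.9% at 100 nM and 47.0% at 1 µM. The defining leukocyte gene Ptprc (CD45) averaged -2.42 ± 0.76 and was below the reference on all 12 arrays, and the macrophage gene Adgre1 averaged -0.45 ± 0.68 and was above it on 4 (SD, n = 12 arrays each). With each array divided by its ratio scale, the change at 1 µM was 1.05 for Krt8 on probe 31298 and 0.31 for Krt18. Over the 12 arrays, Krt8 on probe 31298 correlated with the ratio scale at -0.74 and with the leukocyte average at 0.88. Krt18 did so at -0.90 and 0.76, and Krt8 on probe 7148, with the other signs, at 0.49 and -0.61. With the leukocyte average, Twist1 correlated at -0.74, Snai1 at -0.70 and Epcam at 0.64, so such correlations were not confined to keratins. The other member probes measured on all 12 arrays were between -0.47 and -0.03. The parts of the ratio scale and of the leukocyte markers in the values of these genes were not tested.

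**Figure D3:**
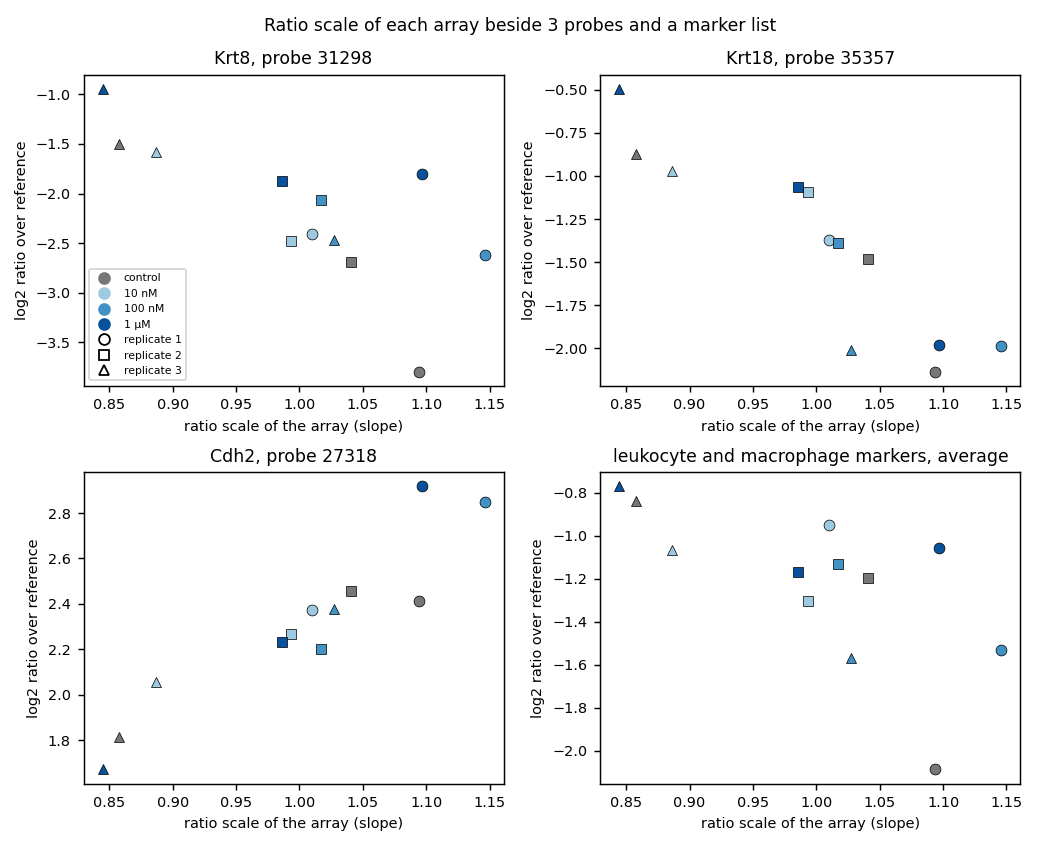
Ratio scale of each array (horizontal axis, slope on the mean of the 12 arrays) beside the log2 ratio over reference (vertical axis) of Krt8 on probe 31298, Krt18, Cdh2 on probe 27318 and the average of 9 leukocyte and macrophage markers, with 1 point per array coloured by dose and shaped by replicate. In all 4 panels the value closest to 0 is that of 1 µM replicate 3, where the ratio scale is 0.845.

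Between the genes, 6 pairs were compared over the arrays, with each gene as the mean of its probes measured throughout, and none passed after adjustment over the 6. Leaving out single arrays brought 2 of the pairs past the threshold, as given with them. Krt8, here the mean of its 2 discordant probes, and Krt18, its filament partner, had a Pearson r of 0.680 (p = 0.0110, adjusted p = 0.0661) and a Spearman rho of 0.713 (p = 0.0119, adjusted p = 0.0713; permutation tests over 12 arrays). Without the 2 arrays farthest from the Krt8 median the r was 0.264, though leaving out extreme arrays also narrows the range. The r was 0.491 (adjusted p = 0.194, permutation test) with the arrays at one ratio scale. Within replicate numbers, with their means removed, it was 0.675. The adjusted p was 0.0298 without 10 nM replicate 2, 0.0464 without 100 nM replicate 2 and 0.0170 without 1 µM replicate 1 (permutation tests). The paralogs Snai1 and Snai2 had an r of 0.611 (p = 0.0359, adjusted p = 0.108) and a rho of 0.615 (p = 0.0361, adjusted p = 0.108; permutation tests), 0.523 without the 2 farthest arrays and 0.613 with replicate means removed. Without 100 nM replicate 2 the r of this pair was 0.740 (adjusted p = 0.0464, permutation test). The other 4 had an r of -0.12 for Epcam and Cdh1 (rho -0.19, adjusted p = 0.721 and 0.685), 0.16 for Cdh1 and Cdh2 (rho 0.23, adjusted p = 0.721 and 0.685), -0.56 for Zeb1 and Zeb2 (rho -0.10, adjusted p = 0.136 and 0.766) and 0.48 for Cdh1 and Zeb1 (rho 0.27, adjusted p = 0.194 and 0.685), all by permutation. Their raw p for r and rho were 0.721 and 0.571, 0.639 and 0.505, 0.0682 and 0.766, and 0.130 and 0.419. Without the 2 farthest arrays these r were -0.33, 0.55, 0.06 and 0.72, and with replicate means removed -0.11, 0.26, -0.49 and 0.55. The Zeb1 value here is the mean of 2 probes with an r of -0.05 between them. That of Zeb2 leaves out probe 12857, which had values on 11 arrays.

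The genes whose ratios were most like a member's over the 12 arrays, by Pearson r among 18741 to 18744 named probes, were Akr1b10 (0.957) and Hcls1 (0.933) for Krt8 on probe 31298, Zbtb43 (0.928) and Igfbp4 (0.924) for Krt18, Rhag (0.916) and Ccnl1 (0.892) for Epcam, and Ewsr1 (0.966) and E2f5 (0.966) for Cdh2 on probe 27318. For the factors they were Rab1b (0.956) and Abcf1 (0.953) for Snai1, Ppp4r1 (0.877) and Cacfd1 (0.860) for Snai2, and Ptn (0.920) and Pdgfc (0.909) for Twist1. These are descriptions, and all points share the same arrays and the same ratio scales.

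Mesenchymal genes outside the set were mostly above the reference. The direction of the ratio rests partly on the signs of fibroblast and leukocyte genes, so the side of these genes is not independent of it. Of 34 measured mesenchymal genes 32 had values on all 12 arrays, and 18 of these were above the reference throughout and 2 below, where 25.7% of 12984 genes were above and 18.8% below. The median over the list was 0.69, beside 0.03 over all genes. S100a4, a calcium-binding protein gene of fibroblasts, averaged 1.99 ± 0.18, Twist2, a paralog of Twist1, 1.51 ± 0.41, Prrx1, a homeobox gene of mesenchyme, 1.17 ± 0.13, and Fn1 (fibronectin) 0.92 ± 0.20 (SD, n = 12 arrays each). Acta2, the smooth muscle actin gene of contractile fibroblasts, was at 0.79 ± 0.26, the intermediate filament gene Vim at 0.73 ± 0.16 and Cdh11, a cadherin of mesenchyme, at 0.64 ± 0.17, while Tcf4, an E-box binding factor gene, was at -0.39 ± 0.19 and below the reference on all 12 arrays.

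Epithelial genes outside the set lay on both sides of the reference. Of 36 measured, 30 had values on all arrays, and 4 of these were above throughout and 10 below, with a list median of -0.29. Keratin genes again differed from each other: Krt19, a simple-epithelium keratin, averaged -3.44 ± 0.50, and Krt7, another, 0.72 ± 0.22 (SD, n = 12 arrays each), each on 1 side of the reference on every array. Of the claudin genes of tight junctions, Cldn7 was at -0.83 ± 0.33 and Cldn4 at 0.28 ± 0.20, and Ocln (occludin) was at -1.41 ± 1.11 on 10 arrays. Among regulators of the epithelial state, the splicing factor gene Esrp1 was at -0.47 ± 0.25 and Ovol1, a zinc finger gene, at 0.17 ± 0.35.

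Genes of proteins that work with the set lay on both sides of the reference. Catenins work in complexes with cadherins: Ctnnd1 (p120 catenin) averaged 0.69 ± 0.24, Ctnnb1 (beta-catenin) 0.20 ± 0.18, Jup (plakoglobin) -0.04 ± 0.19 and Ctnna1 (alpha-catenin) -0.20 ± 0.16 (SD, n = 12 arrays each). The median of the 13 measured catenins and cadherin partners was -0.23. Of the co-repressors used by the Zeb and Snail proteins, Ctbp1 averaged 0.78 ± 0.26, Hdac1 -0.07 ± 0.26 and the demethylase gene Kdm1a -0.56 ± 0.42, and Id2, an inhibitor of helix-loop-helix factors, was at -0.02 ± 0.24. Of endothelial markers, 8 of 10 were measured, and 1 was above and 1 below the reference on all arrays among the 4 with complete values. The list median was -0.34, and Pecam1, which averaged 0.38 ± 0.15, was the highest of the list.

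None of these lists held a gene that passed at any dose. Over 1 value per gene, 14524 in all, 0 passed in each list in either direction (limma, Benjamini-Hochberg), and between 0 and 1 gene of a list had an unadjusted p under 0.05 at a single dose. Over all genes, 2.48% had such a p at 10 nM, 3.02% at 100 nM and 4.26% at 1 µM, and 47.0% were above control at 1 µM. At 1 µM the median log2 change was 0.13 over the epithelial list, with 21 of 36 above control, and -0.03 over the mesenchymal list, with 15 of 34 above. It was -0.10 over the catenins and cadherin partners, with 4 of 13 above, and 0.0010 over the co-repressors, with 12 of 24 above. Beside these, the median was 0.04 over endothelial markers, with 4 of 8 above control. Leaving out 1 array at a time, the median at 1 µM ran from -0.062 (without control replicate 1) to 0.22 over the epithelial list and from -0.25 to 0.0052 (without 1 µM replicate 1) over the catenins and cadherin partners, so neither had a settled sign. At 100 nM the medians of the epithelial and mesenchymal lists were -0.0044 and 0.03, and at 10 nM 0.12 and -0.06. Above control were 17 of 36 and 21 of 34 at 100 nM (53.9% of all genes), and 25 of 36 and 12 of 34 at 10 nM (48.4%). Leaving out 1 array, the medians at 10 nM ran from 0.048 to 0.17 and from -0.092 to 0.0017. Genes of a list share the same arrays, and these counts got no test.

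**Figure D4:**
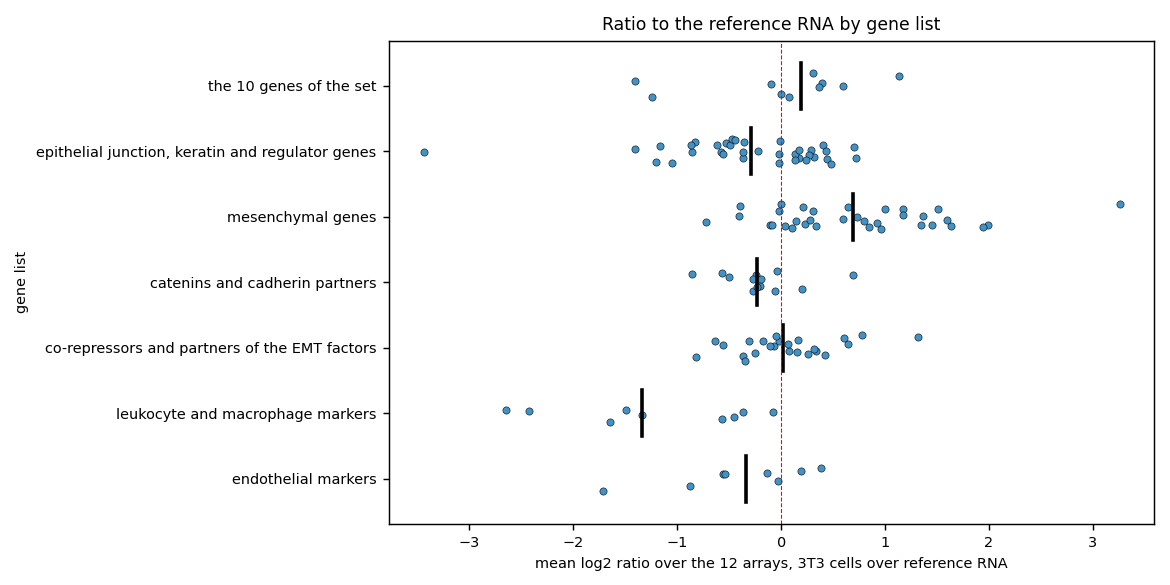
Mean log2 ratio of 3T3 cells over reference RNA across the arrays with a value (horizontal axis) for every measured gene of the set and of 6 related lists (vertical axis), with a bar at each list's median and the reference as a dashed line. The mesenchymal list has its median at 0.69 and the leukocyte and macrophage list at -1.33, with the epithelial list between them at -0.29.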

How the data were processed

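The arrays were 2-colour oligonucleotide arrays read on an Axon scanner, per the labels. The deposited values are a log2 ratio per probe and array. The sources used here do not give the log base, or how the authors corrected background, normalized and centred. Array medians lay between -0.203 and -0.095, and blank or null values were treated as missing. Probes were named from the platform annotation, 26173 with 1 symbol, 28 with several and 12583 with none, and gene identifiers looked up in a RefSeq table changed 0 symbols.

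Each array was centred on its median. The 30357 probes with a value on at least 2 arrays of every group went into a limma fit (version 3.58.1, R 4.3.3) using all 12 arrays and a term for dose group alone. Adjustment was by Benjamini-Hochberg over all probes, at 0.05. Probes of a gene with complete values were averaged; a gene without such a probe took its most complete one. Ratios against the reference got no test. Correlations used 100000 permutations. The test was checked on simulated data. Named genes were all members, fixed genes of each list whatever their values, and the 2 genes most like each member, of which those of some members are given. Dsp, Grhl2 and Cdh5 were named by that rule and had too few values to be tested. The members and lists were chosen with earlier results of these data known.

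Alternatives were no centring, equal spread, quantile normalization, other probe filters, the replicate number as a block, weighting of arrays, a robust variance prior, fits restricted to a dose and control, a gene-level fit and leaving out each array, with division by the ratio scale added after seeing the data. Plots were made in Python 3.11.15 (matplotlib 3.10.9).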

Additional observations from a re-analysis of the deposited data

How the results depend on the processing

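No member probe passed in any alternative run, at any dose, for the mean of the doses or in the F test, and no gene of the lists passed in those run for them, at the 3 doses. Over all probes the count at 1 µM was 1 in the reported fit and 0 to 3 over the alternatives, and in the F test 1 and 0 to 2. With replicate number as a fixed or a random block the member count was 0, and 8 of 12 arrays correlated best with an array of their own number, a hint from the data. Array titles also run consecutively within a replicate number. The deviations of arrays with the same number correlated at -0.104 to 0.253, with a median of 0.095, over 0.1 in 9 of 18 pairs. For the 36 pairs with different numbers the range was -0.314 to 0.208. No label says that a number marks a shared batch, so the reported fit left the numbers out, but pairing is not excluded. Means over the groups for numbers 1, 2 and 3 were 2.64, 2.29 and 1.98 for Cdh2 on probe 27318 and -1.87, -1.26 and -1.09 for Krt18. They were -2.66, -2.28 and -1.62 for Krt8 on probe 31298, and 0.065, 0.051 and 0.10 for Cdh1. The spread within groups and the intervals of the reported fit include such differences. Within numbers 1, 2 and 3, Krt8 on probe 31298 at 1 µM differed from control by 1.99, 0.82 and 0.56, Krt18 by 0.16, 0.42 and 0.38, and Epcam by 0.87, 0.78 and 0.01. Of 663 values of a member's change under an alternative, 35 had the other sign, all of them of changes that did not pass. With the fixed block, which cannot move the estimate of a complete probe, Krt8 on probe 31298 had an adjusted p of 0.912 at 1 µM (limma). At 100 nM, Krt8 on probe 7148 was 0.0059 at equal spread, 0.012 with quantile normalization, 0.0093 at one ratio scale and 0.077 with array weights, where Krt8 on probe 31298 was -0.012. At 1 µM, Zeb2 on probe 12857 was -0.0077 at equal spread, -0.021 with quantile normalization and -0.12 with array weights, and Cdh2 on probe 27318 was -0.019 at equal spread. The cause was not tested.

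Leaving out 1 array at a time, the ranges at 1 µM were -0.29 to 0.037 for Snai1, -0.33 to 0.026 for Krt8 on probe 7148, -0.26 to 0.079 for Twist1, -0.055 to 0.11 for Snai2, -0.21 to 0.29 and -0.18 to 0.32 for Zeb2 on probes 12857 and 16799, -0.28 to 0.35 and -0.41 to 0.0078 for Cdh2 on probes 27318 and 30587, -0.36 to 0.11 and -0.0063 to 0.35 for Zeb1 on probes 27432 and 29527, and -0.024 to 0.72 for Krt18. At 100 nM they were -0.17 to 0.19 and -0.29 to 0.86 for Krt8 on probes 7148 and 31298, -0.071 to 0.46 for Epcam and -0.62 to 0.016 for Krt18, and at 10 nM -0.060 to 1.09 for Krt8 on probe 31298. The r of Krt8 and Krt18 was 0.698 without centring (adjusted p = 0.0487, permutation test), past the threshold, and 0.496 to 0.784 without 1 array, with 3 of these past the threshold. The same ranges were 0.527 to 0.740 for Snai1 and Snai2, with 1 past the threshold, -0.275 to 0.113 for Epcam and Cdh1 and -0.145 to 0.493 for Cdh1 and Cdh2. Of 360 list medians under an alternative, 35 moved by more than the spread of the list's average over control arrays. Ratios against the reference moved by less than their spread over arrays in 271 of 272 cases for member probes, the exception being Cdh2 on probe 35576 without centring, at 0.59. Scanner intensities were not used here, so a probe near background cannot be told from one with equal signal in both channels.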

Other observations

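Some listed genes that the rule for naming did not pick stood far from the reference, and they were chosen after their values were seen. Sox9, a transcription factor gene of chondrocytes and of several epithelia, averaged 3.26 ± 1.00 on the 9 arrays with a value (SD) and was the highest of the mesenchymal list, while the growth factor receptor gene Pdgfra averaged -0.72 ± 0.32 (n = 12) and was the lowest. Krt5, the keratin gene of basal epithelium, averaged 0.70 ± 0.25, close to Krt7. Eng (endoglin) averaged -1.71 ± 0.37 and was the lowest of the endothelial list.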
